A study of Oryza sativa Indica Group with 27 samples.

Results

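Nonabokra is an indica rice cultivar known for salt tolerance, and the data described here compare its seedlings after 6 h in salt with seedlings kept in growth medium. The comparison rests on 6 of the 27 arrays of the study, the 3 labelled as 6 h of stress in Nonabokra and the 3 labelled as its unstressed control. Seedlings were grown without soil for 7 days in rice growth medium at pH 4.8, after seeds had been surface sterilised and imbibed. Stressed seedlings were then moved into 200 mM NaCl at 28 °C, and control seedlings stayed in the growth medium for 6 h at the same temperature. The 6 h arrays and their controls therefore shared cultivar, age and hours since the start. They differed in the salt and in the medium it replaced, whose parts cannot be told apart here. Total RNA of whole seedlings was labelled with biotin and hybridised to Affymetrix rice arrays, and the 3 arrays of a group are given as biological replicates. The study also holds 3 arrays of Nonabokra after 3 h of salt and the same 3 groups for Pokkali, a further tolerant cultivar, and for IR29, a salt-sensitive one. The description field of the 3 h Nonabokra arrays names drought, while their treatment field and the protocol name salinity, which is followed here. The other groups serve below only to show where the 6 h response of Nonabokra stood.

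Salt in the medium acts on a seedling first as a loss of available water and later through sodium that enters the shoot. The hormone abscisic acid carries much of the early response: its receptors block protein phosphatases 2C, which frees SnRK2 kinases (called SAPK in rice) to activate bZIP factors, and these switch on genes of dehydrins and other late embryogenesis abundant proteins. Sodium itself is handled by transporters of the HKT, HAK and SOS families, and Nonabokra is the cultivar from which the sodium transporter gene HKT1;5 was isolated as a locus for shoot potassium under salt.

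Of 57194 probe sets tested, 12804 passed at an adjusted p under 0.05, which is 22.4%. Each of 17905 genes was represented by its brightest probe set, and 8437 of these passed (47.1%), 4011 of them higher (22.4%) and 4426 lower (24.7%) at 6 h. After quantile normalization 4393 were higher and 4141 lower, so which direction held more genes turned with the scaling. Changes of 2-fold or more were far fewer, 704 genes higher (3.93%) and 723 lower (4.04%). The median change over all genes was -0.0022. Values are intensities on a linear scale, changes are differences of log2(intensity + 16) ± standard error from a limma fit over all 27 arrays, and a gene is said to rise or fall only where it passed. The added 16 understates changes of dim genes, and the fitted error is shared with the other groups. The gene lists below were drawn from 2447 genes with an informative symbol, among which 25.2% rose and 29.5% fell, so a list near these shares does not stand out. By 2-fold or more 5.93% of them rose and 3.88% fell. The 3 stressed arrays lay wholly above the 3 controls in 26.2% of all genes and wholly below them in 30.8%.

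The arrays of a group lay close together, with medians of 7.19 to 7.31. Replicate 3 of the control was the least like its group, with correlations of 0.9957 and 0.9971 where replicates 1 and 2 reached 0.9984. Replicate 1 at 6 h likewise had 0.9964 and 0.9965, where the remaining pair reached 0.9992. With both left out 11526 probe sets passed. The poly-A spikes, added to the RNA before labelling, had mean log2 levels of 9.26, 9.29 and 8.14 in the controls and 6.37, 7.34 and 7.30 at 6 h, all lower. Their part in the results was not tested. Leaf and root genes were both present: RBCS, the Rubisco small subunit, stood at 18969 in the controls and 17517 at 6 h, and the root silicon channel NIP2-1 at 5986 and 3144. The summed level of 4 root genes ran from 7539 to 8405 in the controls and from 4871 to 5433 at 6 h, while that of 6 leaf genes ran from 105444 to 109731 and from 92508 to 104312. NIP2-1 makes up most of the root sum, and Lsi2, a silicon exporter of roots, stood at 2003 and 1943. Taken singly, 2 of the 4 root genes rose and 1 fell, with a median change of 0.30. The storage protein genes GLUA1, GLUD1, GLUA3 and PROLM25 had means of at most 10.4 in both groups, and the anther gene RTS stood at 5.49 in the controls. Of 4 anther genes looked for 2 were measured, and their summed level ran from 186 to 252 in the controls and from 154 to 217 at 6 h. RTS makes up little of that sum, so signal was present for the other anther gene. GLUA2, a further storage protein gene, stood at 319 and 216. AMY1.1, an alpha-amylase of germinating grains looked at in the same check, stood at 3440 in the controls and 5.83 at 6 h. The summed level of 6 seed genes ran from 3647 to 3978 in the controls and from 234 to 259 at 6 h, and AMY1.1 makes up most of the control sum. In RNA of whole seedlings, fewer cells of a type and less RNA per cell cannot be told apart.

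Among named genes the largest rises after 6 h of salt were those of PM19L1 and LTP-2. PM19L1, which encodes a plasma membrane protein of the AWPM-19 family, had intensities of 44.9, 40.4 and 41.4 in the control arrays and 3250.2, 2658 and 2771 at 6 h. LTP-2, a lipid transfer protein, went from 9.14, 17.0 and 17.4 to 1659, 1339 and 1348. In both genes every 6 h array lay far above every control array, and the changes were 5.64 ± 0.11 and 5.59 ± 0.12 (SE; adjusted p = 3e-18 and 1.5e-17). TIP3-1, a water channel of the storage vacuole known from seeds, had 37.2, 25.8 and 33.5 in the controls and 1274, 967 and 810.4 at 6 h, a change of 4.41 ± 0.14. Its 6 h arrays spread more widely than those of PM19L1 and LTP-2, and all lay above the controls. PMEI8, an inhibitor of pectin methylesterase, went from 171, 155 and 171 to 2610.4, 2465 and 2421, a change of 3.79 ± 0.05 (adjusted p = 1.2e-21). BGLU16, a beta-glucosidase, rose by 3.65, and PDHE1-A, the E1 alpha subunit of pyruvate dehydrogenase (the copy with gene ID 4340640), rose by 3.41 from a control mean of 27.1. CDKE-1, a cyclin-dependent kinase, had 257, 264 and 294 in the controls and 4489, 3874 and 4167 at 6 h, a change of 3.87 ± 0.09. Both of its probe sets passed in the same direction, whereas 1 of 2 probe sets of PM19L1 passed. Lipid transfer proteins as a list had 4 higher and 1 lower of 5, and next to LTP-2 the gene LTP rose by 1.44 from a control mean of 4093.

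**Figure D1:**
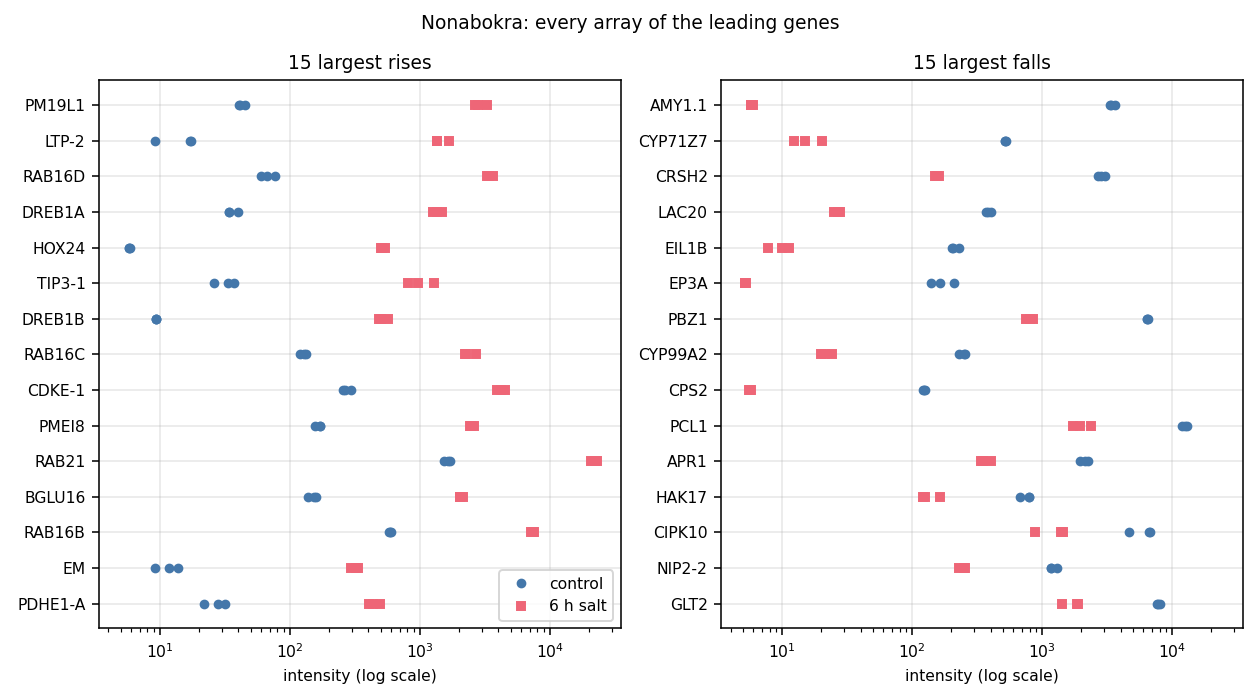
Intensities on a log axis in each of the 3 control arrays (circles) and 3 arrays after 6 h of salt (squares) for the 15 named genes that rose most and the 15 that fell most. The 2 groups do not overlap in any of the 30 genes, which the choice of genes required, and AMY1.1 spans the widest range, from 3329, 3362 and 3629.7 down to 5.77, 5.78 and 5.95.

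Dehydrins and other late embryogenesis abundant proteins, which protect cells as they lose water, rose in all 8 measured members, each by 2-fold or more, with a median change of 3.60. RAB21, the dehydrin also called RAB16A, had intensities of 1538, 1703 and 1639 in the controls and 23058, 20481 and 22007 at 6 h. It was the brightest of the list in both groups. RAB16D, which rose most among the dehydrins, had 76.8, 59.5 and 66.0 and 3608, 3371 and 3243, a change of 5.36 ± 0.06 (adjusted p = 1e-21), and the arrays of both genes did not overlap between the groups. RAB16B went from 585, 602 and 574 to 7520.2, 7407 and 7126, RAB16C from 128, 119 and 133 to 2706, 2225 and 2247 and EM, an early methionine-rich protein of embryos, from 9.21, 13.8 and 11.6 to 293, 335 and 322. The changes were 3.73 ± 0.07 for RAB21, 3.61 ± 0.04 for RAB16B, 4.08 ± 0.09 for RAB16C and 3.60 ± 0.12 for EM, with adjusted p values of 6e-19, 3.1e-22, 2e-17 and 1.3e-14. LEA19 rose by 2.50, rab25 by 1.81 and Dhn1 by 1.05, the smallest change of the list. The RAB16 genes are near copies of each other, so that their probe sets may share signal. All 8 members were lower at 6 h than at 3 h, against 28.4% of all named genes.

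Of 3 measured genes of abscisic acid synthesis and breakdown both breakdown genes rose. ABA8OX1 and ABA8OX2 encode the 8′-hydroxylases that break abscisic acid down. ABA8OX1 had intensities of 405, 351 and 423 in the control arrays and 2612, 2704 and 2431 at 6 h, and ABA8OX2 had 123, 129 and 140.1 and 734, 706 and 682. Both groups of arrays were fully apart in both genes, and the changes were 2.67 ± 0.07 and 2.30 ± 0.06 (adjusted p = 5.8e-17 and 3.2e-16). ABA1, zeaxanthin epoxidase of abscisic acid synthesis, did not pass, at 0.05. The 1 measured receptor gene, PYL11, fell by 0.35, from 2039, 1952 and 1859 to 1437, 1544 and 1592. Among 56 protein phosphatases 2C, 23 rose (41.1%) and 14 fell (25%), with 8 of the rises and none of the falls reaching 2-fold. PP2C59 went from 10.2, 10.1 and 8.47 to 234, 221 and 270.2, PP2C68 from 79.3, 82.8 and 81.3 to 680.2, 644 and 651 and PP2C30 from 221, 223 and 248 to 1442, 1242 and 1268. These were the largest changes of the family, 3.33 ± 0.07, 2.80 ± 0.07 and 2.43 ± 0.08, while PP2C08 rose by 1.85. The largest fall was that of PP2C07, by 0.89.

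The 10 SAPK kinases did not move together. SAPK1 rose by 1.79, SAPK3 by 1.09, SAPK6 by 0.88 and SAPK10 by 0.57. SAPK9 had intensities of 2312, 2217 and 2449.9 in the controls and 929.6, 955 and 1011 at 6 h, a change of -1.25 ± 0.06 (adjusted p = 6.9e-13), with every 6 h array below every control array. SAPK7 and SAPK8 fell by 0.23 and 0.21, and SAPK2, SAPK4 and SAPK5 did not pass. Of 19 bZIP factors, 6 rose and 3 fell. BZIP23 and TRAB1, which act on abscisic acid response elements, were among those that rose: BZIP23 went from 1075, 919 and 1026 to 2032, 2018 and 2031, a change of 1.00 ± 0.06, and TRAB1 rose by 0.59, though with an adjusted p of 0.06 in a fit of these 6 arrays alone. BZIP52 rose by 0.96 and bZIP08 fell by 0.67. The calcium-binding CRSH enzymes of plastids, which make the alarm nucleotide ppGpp, moved apart from each other. CRSH2 had 3037, 2679 and 2808 in the controls and 154, 161 and 149 at 6 h, a change of -4.06 ± 0.06 (adjusted p = 1.9e-20). CRSH1 rose by 0.88, from 137, 129 and 159.6 to 286, 247 and 287, and CRSH3 stood between 5.55 and 6.07 on all 6 arrays.

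Among 12 AP2/ERF factors 6 rose and none fell, although 1 was lower when the probe sets of each gene were averaged. 4 of the 12 had mean levels under 20. A subset of the DREB1 genes, which bind the drought-responsive element of promoters, made up the large changes. DREB1A had intensities of 33.9, 34.1 and 39.6 in the controls and 1479, 1361 and 1256 at 6 h, DREB1B 9.36, 9.30 and 9.32 and 485, 566 and 503, and DREB1G 8.38, 7.98 and 8.69 and 81.6, 119.5 and 99.7. All 3 were dim before salt, and none overlapped between the groups. Their changes were 4.73 ± 0.11, 4.40 ± 0.08 and 2.24 ± 0.13 (adjusted p = 5.5e-17, 9.7e-19 and 2.3e-11). DREB1C, at a mean of 8.11 at 6 h, did not pass, and DREB2A rose by 0.63 to a mean of 47.8 only, a call lost in a fit of these 6 arrays alone (adjusted p = 0.056). Among 25 HD-Zip factors 6 rose and 8 fell. HOX24 had 5.82, 5.77 and 5.86 in the controls, near the floor of the array, and 534, 496 and 505 at 6 h, and HOX22 went from 35.6, 37.2 and 35.1 to 516, 434 and 478. These close relatives changed by 4.60 ± 0.09 and 3.24 ± 0.07, while HOX28 fell by 1.21 and HOX2 by 1.00.

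Of 8 NAC factors 4 rose and none fell. NAC6, a NAC factor known from drought and salt responses, went from 947, 1017 and 953 to 3311, 3019.8 and 3165, a change of 1.69 ± 0.07 (adjusted p = 1.9e-13), and 1 of its 3 probe sets passed. NAC5, which is known from the same responses, was at -0.32 and did not pass. WRKY71 had 381, 412 and 402 in the controls and 2293, 2464 and 2503 at 6 h, a change of 2.55 ± 0.09. Both of its probe sets passed, and no 6 h array overlapped with the controls. WRKY24 rose by 0.94, whereas WRKY62 and WRKY76 fell by 0.56 and 0.59. Among 11 MYB factors 5 rose and 2 fell, with MYB2 at 1.46, JAMYB, a factor known from jasmonate responses, at 1.35 and MYBS3, a repressor of alpha-amylase promoters under sugar starvation and cold, at 0.88. MYBS2 fell by 0.34, and MYBS1, which activates those promoters, was at -0.22 and did not pass.

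Heat shock proteins, chaperones that hold unfolded proteins, rose in 13 of 23 members (56.5%) and fell in 3, with a median change of 0.38. When the probe sets of each gene were averaged, the median was 0.16, with 12 higher and 4 lower. HSP17.9A had intensities of 206, 179.5 and 190.4 in the controls and 1332, 1142 and 1063 at 6 h, and HSP16.9A had 23.7, 19.9 and 23.5 and 185, 169.5 and 129.99. The arrays of these small heat shock proteins did not overlap, and their changes were 2.52 ± 0.10 and 2.20 ± 0.11 (adjusted p = 2e-13 and 4.9e-12). The chaperone hsp101 rose by 1.25 from a control mean of 24.8, and the HSP90 genes HSP81-1, HSP81-2 and HSP81-3, all bright before salt, rose by 0.33, 0.62 and 0.50. HSP17.9B went the other way, a change of -1.18 ± 0.07, and HSP18.8 fell by 0.74. 7 of the 23 had mean levels under 20. Of 20 heat shock factors 7 rose and 3 fell. HSFC2A went from 33.9, 37.0 and 37.4 to 232, 229.7 and 211, HSFB2A rose by 2.00, HSFA2C by 1.72 and HSFA6B by 1.42, while HSFA4D fell by 0.98.

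**Figure D2:**
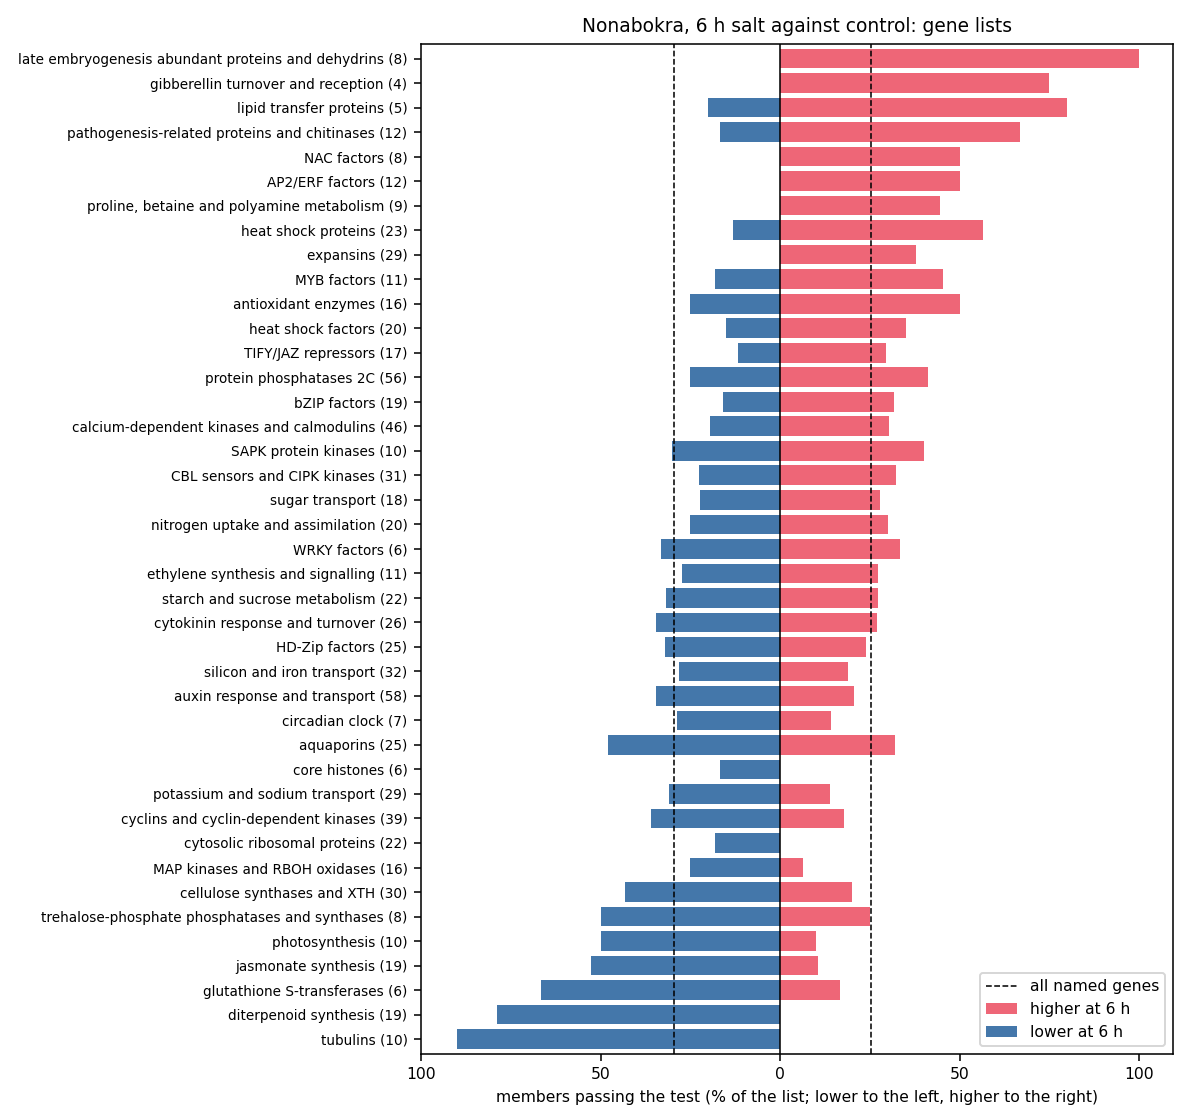
Share of the members of each gene list of 4 or more genes (list size in brackets) that passed the test as higher (bars to the right) or lower (bars to the left) in Nonabokra after 6 h of salt. The broken lines mark the shares among all named genes, 25.2% higher and 29.5% lower; late embryogenesis abundant proteins stand at one end, and tubulins and diterpenoid synthesis at the other.

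Jasmonate is made from linolenic acid by lipoxygenases (LOX), allene oxide synthases (AOS), allene oxide cyclase (AOC) and oxophytodienoate reductases (OPR). Of 19 such genes 10 fell (52.6%) and 2 rose, with a median of -0.32. OPR5 went from 2108, 2339 and 2147 to 911, 894 and 976 and OPR10 from 549.5, 503 and 615 to 213, 191 and 167. CM-LOX2, a lipoxygenase, went from 96.0, 75.1 and 81.4 to 19.5, 23.6 and 18.5. None of the 3 overlapped between the groups, and the changes were -1.23 ± 0.06, -1.47 ± 0.10 and -1.45 ± 0.09 (adjusted p = 3e-12, 8e-10 and 2.2e-10), though 1 of 2 probe sets of OPR5 and 1 of 3 of CM-LOX2 passed. AOS4 fell by 1.13 and AOC, the single cyclase gene, by 0.32. AOS3 rose by 1.15, to a mean of 37.2 only. Among 17 TIFY and JAZ genes 5 rose (29.4%, near the 25.2% of all named genes) and 2 fell (11.8%). JAZ13 had 79.1, 82.4 and 106 in the controls and 659, 580.4 and 552 at 6 h, JAZ6 1046, 1160.1 and 1158 and 3488, 3685 and 3839.7, and JAZ10 437, 442 and 431 and 1445, 1170.4 and 1263. These repressors rose by 2.55, 1.70 and 1.53, and JAZ12 by 1.37, while JAZ3 and JAZ7 fell by 0.76 and 0.52. When the probe sets of each gene were averaged, 4 members of this list were lower.

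Among 11 ethylene genes 3 rose and 3 fell, and 1 of them moved far more than the others. EIL1B, a factor of the EIN3 family that carries the ethylene signal to promoters, had 229, 202 and 204 in the controls and 9.91, 7.83 and 11.3 at 6 h. All 6 h arrays were near the floor, and the change was -3.15 ± 0.08 (adjusted p = 5.2e-17). Its paralog EIL1A, at a control mean of 8375, rose by 0.24. EIN2, which relays the signal from the receptors, fell by 0.58 and the receptor gene ETR3 by 0.48, whereas ACO1, an ethylene-forming oxidase, rose by 1.37 from a control mean of 12.8. Auxin genes had 20 lower (34.5%) and 12 higher (20.7%) of 58. The repressor IAA10 went from 2007, 2007 and 2040.2 to 985, 1026 and 1008, a change of -0.99 ± 0.04, and IAA14 fell by 0.96. IAA9 rose from 145, 132 and 108 to 395, 381 and 367, by 1.47. The response factors ARF9 and ARF12 fell by 0.86 and 0.86, and PIN2, an auxin exporter known from Arabidopsis roots, by 0.64.

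In the cytokinin list of 26 genes 9 fell and 7 rose. The type-A response regulators RR1, RR2, RR4, RR6 and RR9, which cytokinin induces, fell by 1.15, 0.73, 0.81, 0.72 and 0.93, with RR1 going from 101, 92.5 and 100.5 to 40.2, 38.5 and 28.6. CKX4, an oxidase that degrades cytokinin, rose from 88.6, 76.5 and 83.7 to 248, 268 and 238, a change of 1.44 ± 0.07 (adjusted p = 5.1e-12). LOG, which releases active cytokinin, rose by 1.02, and its relative LOGL10 fell by 1.24. Gibberellin was represented by 4 genes, of which 3 rose. GA20OX3, an oxidase of gibberellin synthesis, had 239.6, 230.4 and 231 in the controls and 823, 731 and 751 at 6 h, a change of 1.65 ± 0.07. GA20OX2, the oxidase known as the semidwarf gene, rose by 1.07 and the receptor gid1 by 1.06.

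Of 29 genes of sodium and potassium transport 9 fell (31%), near the 29.5% of all named genes, 4 rose (13.8%, beside 25.2%) and 16 did not pass. HKT1;5, which withdraws sodium from the xylem, was dim in these whole seedlings, with 22.8, 32.9 and 28.1 in the controls and 18.1, 17.3 and 17.4 at 6 h. All 6 h arrays lay below the controls, and the change was -0.38 ± 0.08 (adjusted p = 0.0015). It no longer passed in a fit of these 6 arrays alone, with an adjusted p of 0.067. AKT1, the potassium inward channel of roots, went from 224, 248 and 252 to 101, 102 and 104, a change of -1.12 ± 0.06 (adjusted p = 2.6e-11). The potassium transporter HAK17 fell from 669, 797 and 786 to 164, 125 and 120.2, by 2.34, and both of its probe sets passed. HAK13 and HAK1 fell by 0.85 and 0.35. HAK5, the brightest of the family, at a control mean of 9227, fell by 0.14. HAK7 was the largest rise, from 632, 621 and 606 to 1302, 1291 and 1370.1, a change of 1.07 ± 0.05.

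CIPK kinases, which act with calcium-binding CBL proteins on such transporters, split between rises and falls, with 10 higher and 7 lower of 31. CIPK10 had 6684, 6638 and 4659.8 in the controls and 880.1, 1455 and 1383 at 6 h. The groups did not overlap although control replicate 3 and 6 h replicate 1 stood apart from the others, and the change was -2.27 ± 0.21 (adjusted p = 4.9e-08), with all 4 probe sets lower. CIPK14 rose from 1858, 1928 and 1542 to 4196, 5227 and 4986, a change of 1.43 ± 0.10. CIPK23, which activates AKT1, fell by 0.94, and CIPK24, the SOS2 kinase of the sodium efflux pathway, was at 0.21 and did not pass. CBL4, its SOS3 partner, rose by 0.47 from a mean of 37.5. Among 46 calcium-dependent kinases and calmodulin-like proteins 14 rose and 9 fell. CML15, a calmodulin-like protein, went from 113, 109.7 and 120.4 to 1499.7, 1253 and 1323. That was the largest change of the list, 3.40 ± 0.05 (adjusted p = 2.5e-20), followed by CML18 at 1.51 and CML27 at 1.21. CPK12 fell by 1.097 and CML1 by 0.85. Of 16 MAP kinases and RBOH oxidases 1 rose, MPK5 by 0.85, and 4 fell, among them rbohB, an NADPH oxidase, by 0.94.

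Aquaporins, the water channels of membranes, changed in 20 of 25 members, 8 higher and 12 lower, all but 3 of them by less than 2-fold. Besides TIP3-1, PIP2-4 of the plasma membrane rose from 232, 234 and 259 to 482, 462 and 522, a change of 0.97 ± 0.08. TIP1-2 of the vacuole fell from 1900.2, 1838 and 1886 to 743, 494 and 505, a change of -1.69 ± 0.13 (adjusted p = 2.3e-09), with 6 h replicate 1 the highest of the 3 stressed arrays. The bright PIP2-7 fell by 0.74, and PIP1-2 and PIP1-3 rose by 0.37 and 0.39. The silicon channels NIP2-1 and NIP2-2, known as Lsi1 and Lsi6, both fell. NIP2-1 had 5595, 6228 and 6136 in the controls and 3141, 3029.5 and 3260.4 at 6 h, and NIP2-2 had 1156, 1293 and 1160.3 and 248, 229.9 and 253. The groups were apart in both, and the changes were -0.92 ± 0.07 and -2.23 ± 0.08 (adjusted p = 1.6e-09 and 4.7e-14), beside -0.05 for the exporter Lsi2, which did not pass. In the list of 32 silicon and iron transport genes 6 rose and 9 fell. NAAT1, NAS1 and NAS3, enzymes on the path to the iron chelators of grasses, fell by 1.15, 0.98 and 0.79, while the iron transporter IRT1 rose by 0.64 to a mean of 28.1. With 64 added in place of 16 the change of IRT1 did not pass.

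Of 20 nitrogen genes 6 rose and 5 fell, and the glutamine synthetases of cytosol and plastid moved in opposite directions. The cytosolic GLN1-2 had 3311, 3544 and 3702 in the controls and 7309.6, 7685 and 8138 at 6 h, a change of 1.13 ± 0.08 (adjusted p = 3.7e-10). GLN2, the plastid enzyme, had 10946, 11618 and 11528 and 5664, 6037 and 6185, a change of -0.93 ± 0.05 (adjusted p = 5e-12). No array of either group overlapped with the other in these genes. GLN1-3 rose by 1.73 from a mean of 26.98, and the ammonium transporter AMT1-2 went from 238, 195 and 235 to 745, 694 and 622, by 1.56. Fd-GOGAT, the glutamate synthase that uses ferredoxin, fell by 0.59. GLT2, a glutamate synthase that uses NADH and is not among the 20, had 8027, 7648 and 7709 in the controls and 1417, 1894 and 1841 at 6 h, a change of -2.18 ± 0.14 (adjusted p = 1.3e-10). The nitrate reductase NIA1 fell by 0.28.

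In starch and sucrose metabolism 6 of 22 genes rose and 7 fell, and AMY1.1, an alpha-amylase that germinating grains secrete to digest starch, fell further than any other named gene. It had intensities of 3329, 3362 and 3629.7 in the control arrays and 5.77, 5.78 and 5.95 at 6 h, where all 3 stressed arrays stood below the array median. The change was -7.31 ± 0.10 (SE; adjusted p = 8.8e-21), and its size depends on the added 16. EP3A, a cysteine protease of germinating grains, had 211, 139 and 162 in the controls and 5.18, 5.28 and 5.18 at 6 h, also near the floor, a change of -3.12 ± 0.09. The other measured amylase genes AMY1.2, AMY1.3, AMY1.4 and AMY1.5 had control means of at most 22.7, and AMY1.5 rose by 0.61. The cell wall invertase CIN2 fell by 1.14, sucrose synthases SUS1, SUS5 and SUS6 by 0.72, 0.79 and 0.91, while SUS4 rose by 0.59 and CIN7 by 0.78.

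Of 18 sugar transport genes 5 rose and 4 fell. SWEET12, a sugar exporter, was at the floor in the controls, with 5.04, 4.99 and 5.11, and had 84.5, 76.8 and 85.5 at 6 h. SWEET15, a further exporter, had 56.9, 47.4 and 52.2 and 292, 267 and 304, and the sucrose carrier SUT1 164, 156 and 134 and 398, 479 and 451. All stressed arrays were above all controls in these 3 genes, with changes of 2.22 ± 0.03, 2.16 ± 0.10 and 1.46 ± 0.08 (adjusted p = 5.5e-21, 6.4e-13 and 3.2e-11). Among 8 trehalose-phosphate phosphatases TPP1 fell from 749, 744 and 662 to 381, 386 and 373, a change of -0.89 ± 0.07, TPP10 fell by 0.84, and TPP7 and TPP9 rose by 0.84 and 0.84. ICL, isocitrate lyase of the glyoxylate cycle through which seedlings turn stored fat into sugar, had 272, 243 and 262 in the controls and 2721, 2640.1 and 2662 at 6 h, a change of 3.29 ± 0.07 (adjusted p = 3.3e-18). MFP, the multifunctional protein of peroxisomal fatty acid oxidation, rose by 0.45, though with an adjusted p of 0.088 in a fit of these 6 arrays alone.

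In proline, betaine and polyamine metabolism 4 of 9 genes rose and none fell. P5CS1 and P5CS2 catalyse the first step of proline synthesis. P5CS1 had 1809, 2036 and 1665 in the controls and 3525, 4421 and 4262 at 6 h, and P5CS2 126, 113 and 96.8 and 349, 399 and 391. The arrays did not overlap, and the changes were 1.14 ± 0.09 and 1.63 ± 0.07 (adjusted p = 2.5e-09 and 1.9e-13), though 1 of 4 probe sets of P5CS2 passed. OAT, ornithine aminotransferase, rose by 1.23 and BADH, a betaine aldehyde dehydrogenase, by 0.73. The polyamine genes ADC1, ADC2, SAMDC and spdSyn1 did not pass. The salt-induced lectin gene salT, named for its response to salt, was already bright, with 5725, 5633 and 5889.7, and reached 28446, 23417 and 26407, a change of 2.17 ± 0.07 (adjusted p = 3.3e-15).

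Of 16 antioxidant enzymes 8 rose and 4 fell, none by 2-fold. The catalase CAT-B went from 5426, 5116 and 5646 to 11552, 10350.2 and 10421, a change of 0.99 ± 0.05 (adjusted p = 1.3e-11). The copper-zinc superoxide dismutase SODCC.2 rose by 0.62 and the glutathione reductase GR by 0.54. Ascorbate peroxidases differed, with APX1 and APX2 of the cytosol at 0.20 and 0.17 and APX8 of the plastid falling by 0.55, from 7024, 7082 and 6494 to 4868, 4591 and 4625. CAT-A fell by 0.33. Glutathione S-transferases were lower in 4 of 6, among them GSTZ5 by 1.02 and GST-I by 0.57, while gst2 rose by 0.63. The peroxidase PRX74 fell from 1159, 1134 and 1073 to 396, 366 and 364, a change of -1.54 ± 0.08.

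Diterpenoid synthesis was the list of 4 or more genes with the lowest median change, -1.06. Rice makes antimicrobial diterpenoids, the momilactones and phytocassanes, from geranylgeranyl diphosphate through copalyl diphosphate synthases (CPS), kaurene synthase-like enzymes (KSL) and cytochromes P450, and it makes gibberellins by the same first steps. Of 19 genes 15 fell (78.9%), none rose, and 10 fell by 2-fold or more. 6 of the 19 had mean levels under 20. CPS2, the copalyl synthase of phytocassanes, had 120.3, 123 and 125 in the controls and 5.59, 5.62 and 5.75 at 6 h, at the floor. CPS4, that of momilactones, had 138, 118 and 128 and 30.2, 28.5 and 30.6. The P450 gene CYP71Z7 had 520.2, 517 and 528 and 20.1, 12.3 and 14.9, and CYP99A2 had 249, 228 and 255 and 24.1, 19.8 and 21.4. In these 4 genes the controls lay within a narrow range and every stressed array far below it. Their changes were -2.68 ± 0.10, -1.65 ± 0.08, -4.09 ± 0.07 and -2.78 ± 0.08 (adjusted p = 7.9e-14, 1.8e-12, 3.9e-19 and 1.5e-15). KSL7 fell by 2.01, KSL4 by 1.49, CYP701A8 by 2.00, CYP71Z6 by 1.95 and CYP99A3 by 1.80. CPS1, the copalyl synthase of gibberellins, also fell, by 1.06, while KS1A, their kaurene synthase, was at 0.18 and did not pass.

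Many of these genes are neighbours. In the gene order of the rice assembly ASM3414082v1 8 of them, among them CPS2, KSL7, CYP71Z6 and CYP71Z7, lie within a run of 10 protein-coding genes, and 7 of the 8 fell. CPS4, KSL4, CYP99A2 and CYP99A3 lie within a run of 6 genes, and all 4 fell. The closely related CYP701A8, CYP701A9 and CYP701A19 lie within a run of 4, and all fell. Near copies within such runs may share signal on the array. The 6 h response was lower in Nonabokra than in Pokkali in 12 of the 19 genes and lower than in IR29 in 12, and it was higher in none, against 18.2% and 23.4% of all named genes lower. CYP99A2 changed by 0.98 in Pokkali and 1.33 in IR29, and CPS4 by 1.42 and 0.84. These momilactone genes thus moved in opposite directions in Nonabokra and in the other cultivars, but from unlike unstressed levels. CPS4 had control means of 128 in Nonabokra, 8.82 in Pokkali and 10.5 in IR29, and 29.8, 50.6 and 31.2 at 6 h. CYP99A2 had control means of 244, 34.3 and 22.6, and 21.8, 83.2 and 81.7 at 6 h. At 3 h CPS2 already stood at a mean of 5.82 and CYP71Z7 at 12.4 in Nonabokra.

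**Figure D3:**
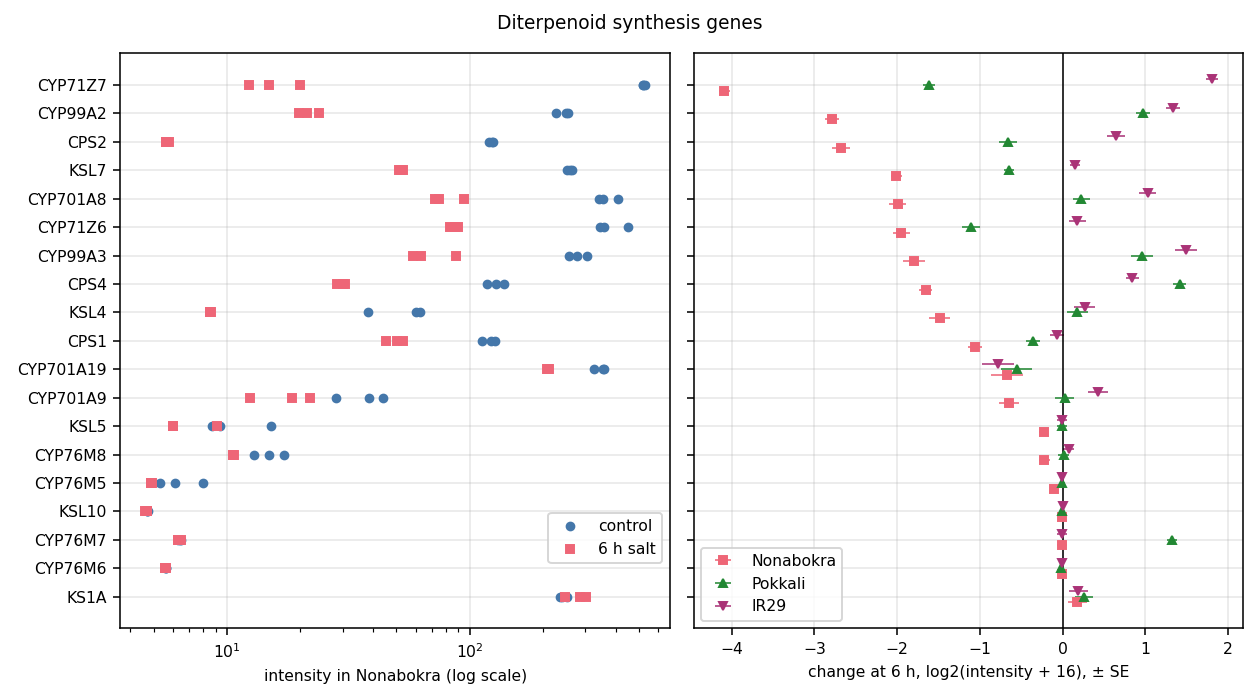
Left, intensities (log axis) of the 19 diterpenoid synthesis genes in each control array (circles) and each array after 6 h of salt (squares) of Nonabokra. Right, the change at 6 h on the scale of log2(intensity + 16) with its standard error in Nonabokra (squares), Pokkali (triangles pointing up) and IR29 (triangles pointing down). CYP71Z7 lies at -4.09 in Nonabokra and 1.81 in IR29.

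Of 12 pathogenesis-related proteins, mostly chitinases, 8 rose (66.7%) and 2 fell, with a median of 0.64. The chitinases Cht10 and Cht-1 rose from 137, 135 and 140.1 to 614, 617 and 507 and from 774, 772 and 727 to 3453, 2343 and 2421, a change of 1.95 ± 0.09 and 1.81 ± 0.10. The 6 h arrays were above the controls throughout, with replicate 1 the highest in Cht-1. Cht11 fell from 216, 252 and 235 to 42.2, 42.2 and 55.4, a change of -2.00 ± 0.11. PBZ1, a probenazole-induced protein of the PR10 family, had 6521, 6347 and 6339 in the controls and 798, 753 and 853 at 6 h, a change of -2.97 ± 0.07 (adjusted p = 2.8e-17). LAC20, a laccase, fell from 404, 385 and 370.4 to 27.7, 25.2 and 27.04, a change of -3.24 ± 0.09. APR1, also among the 15 largest falls of named genes, went from 2252, 1948 and 2113 to 401, 339 and 352, a change of -2.48 ± 0.06.

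Of 10 measured genes of the photosynthetic apparatus 5 fell and 1 rose. RBCS and the light-harvesting gene CAB2R were at -0.12 and 0.04 and did not pass, and LHCP fell by 0.27. PSB28, a protein that helps to assemble photosystem II, fell from 1842, 1750.1 and 1768 to 949, 755 and 712, a change of -1.14 ± 0.08 (adjusted p = 6.7e-10). PSAG of photosystem I rose by 1.08, in 1 of its 2 probe sets. Genes of chlorophyll turnover were put together as a group after values had been seen. Of 5 breakdown genes looked for 4 were measured and 3 rose, and of 9 synthesis genes looked for 4 were measured and all fell. SGR, the stay-green protein that starts chlorophyll breakdown, had 395, 399 and 425 in the controls and 1978, 2262 and 2084 at 6 h. RCCR1, a reductase of the later breakdown steps, had 729, 802 and 705 and 3569, 3335 and 3480.3. Both were higher on every stressed array, a change of 2.33 ± 0.06 and 2.19 ± 0.07. NYC1, the reductase of chlorophyll b, was at -0.08 and did not pass. On the side of synthesis CHLH, a subunit of magnesium chelatase, fell from 12159.6, 11054 and 10561 to 4205, 5066 and 5369.6, a change of -1.21 ± 0.12, and PORA, PORB and CHLG fell by 0.78, 0.77 and 0.76.

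Clock genes changed in 3 of 7 members, which does not stand out beside the 54.7% of all named genes that changed. PCL1, the rice counterpart of the evening gene LUX, had intensities of 11905, 13005 and 12606 in the controls and 2356, 1731 and 1939 at 6 h, a change of -2.64 ± 0.16 (adjusted p = 9.8e-11). PRR1, the rice TOC1, fell from 1616, 1601 and 1444 to 860.3, 950.4 and 1021, a change of -0.71 ± 0.07, and CCA1, a morning gene, rose from 278, 259.8 and 286 to 411, 418 and 474, a change of 0.63 ± 0.11. The groups did not overlap in any of the 3. GI, PRR73, PRR95 and PRR37 did not pass, at -0.04, 0.09, -0.25 and -0.32. BBD1, a nuclease known from defence, moved like PCL1, from 9271, 8844 and 9028 to 2058, 2163 and 2302, a change of -2.05 ± 0.06.

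Tubulins, the subunits of microtubules, fell in 9 of 10 members, with a median of -0.72, and none fell by 2-fold. TUB8 went from 2724, 2514 and 2206 to 1299, 1285 and 1201, TUB7 from 4768, 5015 and 3809 to 2020.4, 2529.8 and 2533 and TUB1 from 5167, 5754 and 6238 to 3624, 2782 and 2924. Every stressed array lay below every control array in these 3 genes, with changes of -0.96 ± 0.08, -0.93 ± 0.13 and -0.88 ± 0.09 (adjusted p = 1.1e-08, 1.7e-05 and 1.2e-07). The tubulins are near copies, and their probe sets may share signal. When the probe sets of each gene were averaged, 8 were lower, with a median of -0.53, and 1 of 2 probe sets of TUB1 passed. Expansins, which loosen the cell wall, were higher in part: 11 of 29 rose (37.9%) and none fell, although 1 fell when the probe sets of each gene were averaged. EXPB7 had 202, 232 and 234 in the controls and 762, 668 and 761 at 6 h, a change of 1.64 ± 0.05, EXLA2 rose by 1.43, and EXPB2 from 206, 203 and 198 to 475, 489.9 and 484, a change of 1.19 ± 0.04. 8 of the 29 expansins had mean levels under 20. Cellulose synthases and related genes were lower in 13 of 30 (43.3%) and higher in 6. The subunits of the secondary wall CESA4, CESA7 and CESA9 fell by 0.72, 0.57 and 0.46, those of the primary wall CESA1 and CESA8 by 0.55 and 0.45, and CslF8 by 1.14.

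Of 39 cyclins and cyclin-dependent kinases 14 fell (35.9%) and 7 rose. The mitotic cyclins CYCB1-1, CYCB2-1 and CYCB2-2 fell, and CYCB1-1 went from 903, 886 and 899 to 387, 367 and 392, a change of -1.20 ± 0.07 (adjusted p = 3.2e-11). CYCB2-1 and CYCB2-2 changed by -0.77 and -0.96. CDC2Os-3, a kinase of the mitotic phase, fell from 426, 461 and 472 to 220.3, 205 and 251, a change of -0.96 ± 0.09, and KRP4, an inhibitor of such kinases, rose by 0.61. The 5 measured H2B genes did not pass, at -0.17 to 0.36, and CenH3, the centromeric histone, fell by 0.33, though with an adjusted p of 0.06 in a fit of these 6 arrays alone. Of 22 cytosolic ribosomal proteins 4 fell (18.2%, beside 29.5% of all named genes) and none rose. RPL27 went from 3727, 3563 and 3755 to 1891, 1771 and 1980.0 and RPL18 from 10109.7, 9344 and 10029.9 to 6365, 5225 and 5934, changes of -0.96 and -0.75, whereas the smaller change of RPS4 (-0.11) overlapped between the groups. After quantile normalization 3 of the 22 were higher and 3 lower. When the probe sets of each gene were averaged, 2 of the 22 were higher and 6 lower.

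Between 3 h and 6 h of salt 8011 genes differed (44.7%), 1.74% of all genes higher and 3.03% lower by 2-fold or more. This comparison shares its 6 h arrays with the one against control. Hours in salt and hours since the start cannot be told apart in it. All controls are of 6 h, so the 3 h arrays differ from them in hours since the start as well as in salt. BBD1 had 48.5, 57.7 and 50.2 at 3 h, PCL1 104, 90.9 and 71.2 and SAPK9 185, 189 and 187. These 3 genes lay far below the 6 h controls at 3 h of salt and less far below them at 6 h. The differences between the time points were 5.01 ± 0.06, 4.28 ± 0.16 and 2.27 ± 0.06 (adjusted p = 2.4e-21, 1.3e-13 and 1.6e-16). The DREB1 genes were instead higher at 6 h than at 3 h. DREB1B had 16.5, 19.2 and 22.4 at 3 h and DREB1G 11.7, 8.93 and 9.47, near the floor, and DREB1A had 213, 228 and 253, already above its controls by 2.25 (adjusted p = 2.6e-12). From 3 h to 6 h they differed by 3.92 ± 0.08, 2.15 ± 0.13 and 2.48 ± 0.11.

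Other genes stood higher at 3 h than in the 6 h controls and than at 6 h of salt. HSP18.6 had 978, 1311 and 1108 at 3 h and 72.0, 81.0 and 59.7 at 6 h, SWEET15 had 3293, 3327 and 3386 at 3 h, and CCA1 had 4460.3, 3176 and 3463. The difference between the time points was -3.72 ± 0.15 for HSP18.6, -3.47 ± 0.10 for SWEET15 and -3.03 ± 0.11 for CCA1, and all 3 were still above their controls at 6 h. CIPK5 had 246, 279 and 241 in the controls, 1259, 1240.3 and 1279 at 3 h and 125, 118 and 127 at 6 h. It thus stood above the controls at 3 h and below them at 6 h, with changes of 2.24 ± 0.11 and -0.96 ± 0.11 (adjusted p = 1.1e-12 and 6.5e-07). AMY1.1 was still falling, with 205, 145 and 179 at 3 h. HOX24 had 4215, 4656 and 4699.9 at 3 h, and its difference of -3.10 ± 0.09 left it well above the controls. By list, 19 of 22 ribosomal proteins and 5 of 6 core histones were higher at 6 h than at 3 h, against 24.1% of all named genes, and 25 of 56 protein phosphatases 2C and 17 of 31 CBL and CIPK genes were lower, against 28.4%.

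**Figure D4:**
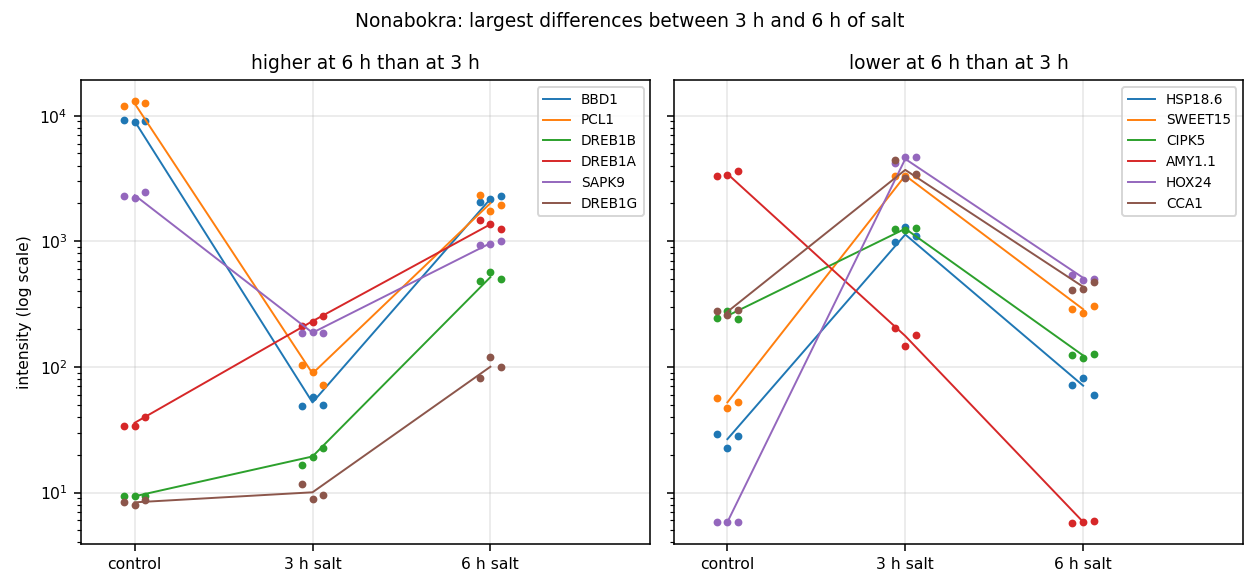
Intensities (log axis) of the 6 genes with the largest differences upward (left) and downward (right) between 3 h and 6 h of salt in Nonabokra, among genes that also differed from control at 6 h. Points are the 3 arrays of each group, lines join group means, and all controls are of 6 h. BBD1, PCL1 and SAPK9 are lowest at 3 h, and the DREB1 genes rise between 3 h and 6 h. All genes on the right but AMY1.1 are highest at 3 h.

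The 6 h response differed between Nonabokra and Pokkali in 5077 genes (28.4%), tested as the difference of the changes from each cultivar's own controls. Among named genes that also changed at 6 h in Nonabokra, RAB16D had the largest difference upward, 6.29 ± 0.09 (adjusted p = 5.7e-20). It changed by 5.36 ± 0.06 in Nonabokra and by -0.92 ± 0.06 in Pokkali. PM19L1, RAB16C, EM and RAB16B followed, with differences of 5.16, 4.96, 3.53 and 3.41. Unstressed levels of these genes were not alike: PM19L1 had a control mean of 42.2 ± 2.41 (SD, n = 3 arrays) in Nonabokra and 2678 ± 103 in Pokkali, and EM of 11.5 ± 2.29 and 442 ± 47.7. At 6 h PM19L1 stood at 2893 ± 314 in Nonabokra and 3733 ± 51.4 in Pokkali. AMY1.1 had the largest difference downward, -7.51 ± 0.14, with 6.79 ± 0.753 in Pokkali's controls and 10.3 ± 1.89 at 6 h. NSHB1, a non-symbiotic haemoglobin, fell by 0.55 in Nonabokra, from 164, 126 and 156 to 104, 87.8 and 96.8, and rose by 3.06 in Pokkali, a difference of -3.60 ± 0.12 (adjusted p = 2.6e-14). NSHB2, a further such haemoglobin gene, differed by -4.07 ± 0.15 (adjusted p = 1.9e-13) and rose by 3.81 in Pokkali. In Nonabokra it was at -0.26 and did not pass, so it is not among the genes ranked here. EP3A, with a difference of -3.11, had means of 5.18 and 5.12 in Pokkali, at the floor in both groups.

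Against IR29, 5560 genes differed in their 6 h response (31.1%). At the level of probe sets 9286 passed, and 16030 did so without replicate 1 of IR29 at 6 h. The DREB1 genes led the upward differences among named genes that also changed at 6 h in Nonabokra. DREB1B had means of 128 ± 8.51 in the controls of IR29 and 9.42 ± 0.312 at 6 h, against a rise in Nonabokra, and the difference was 6.90 ± 0.11 (adjusted p = 6.2e-19). DREB1A differed by 4.80 ± 0.16 and DREB1G by 3.40 ± 0.18, with changes in IR29 of -0.06 and -1.15. In Pokkali the same 3 genes changed by 3.53, 4.17 and 3.25. JAZ13 and PLP2, a patatin-like lipase, differed upward by 3.16 and 3.05, and PLP2 went from 146, 121 and 133 to 638, 566 and 505 in Nonabokra. Downward, PBZ1 differed by -5.58 ± 0.10, with a change of 2.60 in IR29 and -1.11 in Pokkali. CYP71Z7, AMY1.1, CYP99A2 and CPS2 differed by -5.90, -4.34, -4.12 and -3.33. By list, 9 of 19 jasmonate synthesis genes, 18 of 56 protein phosphatases 2C and 21 of 58 auxin genes had a lower response than in IR29, and 12 of 23 heat shock proteins a higher one, where 23.4% of all named genes were lower and 14.3% higher.

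**Figure D5:**
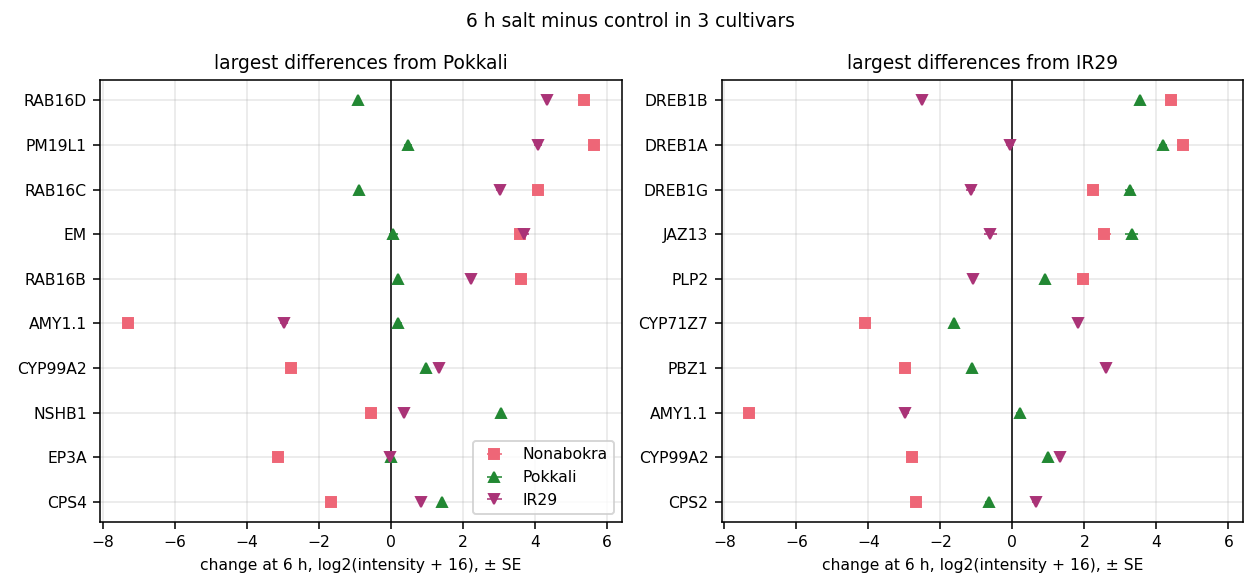
Change at 6 h of salt against each cultivar's own controls, on the scale of log2(intensity + 16) with its standard error. Shown are the named genes whose response in Nonabokra (squares) differed most from Pokkali (left) and from IR29 (right). All of them also differed from control at 6 h in Nonabokra, which the choice required. RAB16D lies at 5.36 in Nonabokra and -0.92 in Pokkali, and DREB1B at 4.40 in Nonabokra and -2.50 in IR29.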

How the data were processed

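Biotin-labelled RNA of whole rice seedlings was read on 27 Affymetrix arrays, 3 for each of 9 groups of cultivar and treatment. The value table that the authors deposited holds 1 linear intensity per probe set and array, made with GCOS per the submitters' processing notes. How it was scaled or summarised is not given in the sources used here. Of 57381 probe sets, 187 that serve as array controls or reporters were set aside. The remaining values were taken as log2(intensity + 16) without further normalization and fitted with limma 3.58.1 in R 4.3.3, with 9 group means over all 27 arrays, empirical Bayes moderation and Benjamini-Hochberg adjustment over all 57194 probe sets. The p values measure the spread between the 3 arrays of each group, and this number limits the precision.

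Genes were named through GEO's platform annotation, updated through RefSeq, only for probe sets paired with 1 gene. No gene was paired with 34663 probe sets, and 95 were paired with several. Where a gene had several probe sets, the one with the highest mean over all arrays stood for it. Among the 2447 genes with an informative symbol, the text names the 15 largest rises and 15 largest falls without overlap, up to 4 members of each of 45 gene lists with the largest changes, the 6 and 6 largest differences from 3 h, and the 5 and 5 largest differences in response from each of the other cultivars. The differences from 3 h and in response were taken among genes that also passed against control at 6 h in Nonabokra. Further list members were named for their known roles after their values were seen. The comparison, the members and the lists were chosen with earlier results of these data known. Same-numbered arrays of control and 6 h had residual correlations of 0.1669, 0.1084 and -0.0075, so the replicate numbers were not taken as pairs. Alternatives covered the spread estimate, the arrays in the fit, dim probe sets, normalization, the added constant, the replicate number and each array left out. The fit was tested on simulated data. No sequences were used, and gene coordinates served only to order the genes for the runs of neighbours.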

Additional observations from a re-analysis of the deposited data

Results flagged for a closer look

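The 6 h response of Nonabokra differed from that of Pokkali, by the test of the difference itself, in the 10 genes chosen for the largest differences. Upward these were RAB16D at 6.2852, PM19L1 at 5.1609, RAB16C at 4.9561, EM at 3.5257 and RAB16B at 3.4135, and downward AMY1.1 at -7.5107, CYP99A2 at -3.762, NSHB1 at -3.6043, EP3A at -3.1146 and CPS4 at -3.0696, on the log2 scale. Against IR29 the differences were 6.8956 for DREB1B, 4.7979 for DREB1A, 3.3952 for DREB1G, 3.1633 for JAZ13 and 3.0533 for PLP2, and -5.8994 for CYP71Z7, -5.5762 for PBZ1, -4.3356 for AMY1.1, -4.1151 for CYP99A2 and -3.3252 for CPS2. The genes were selected by these values, which are given as a description. Only named genes that also passed against control at 6 h in Nonabokra could be selected. Differences in unstressed levels between the cultivars enter each of the values.

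Outside the tested probe sets, the control probe sets at the 3′ end of the GAPDH transcript stood 0.2207 higher at 6 h on the log2 scale, with no overlap between the groups. Those at its 5′ end differed by 0.1968 and those at the 5′ end of actin by -0.58, both with overlap between the groups, and those at the 3′ end of actin differed by -0.2494 without overlap. The single 25S ribosomal RNA probe set stood 1.5039 higher, with 5.23 on replicate 1 at 6 h and 8.27 and 8.20 on the others.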

How the results depend on the processing

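The count of 12804 probe sets against control stayed between 10301 and 13537 under the other spread estimates, scalings, constants, filters and the stricter threshold of 0.01. It was 8549 in a fit of these 6 arrays alone and 12725 with the replicate block. With the replicate block in the 6 arrays alone it was 4200. Leaving out 1 array at a time gave 11804 to 12424 probe sets, 1013 to 1066 higher and 1165 to 1248 lower by 2-fold or more. Adding 64 in place of 16 left 713 lower by 2-fold, since it shrinks changes of dim probe sets. Fits of the compared groups alone gave 7540 probe sets against 3 h and 6186 for the response against IR29. Leaving out arrays gave 10817 to 11537 against 3 h and 7046 to 7507 against Pokkali. For IR29 the range was 7742 to 16030, the lowest without replicate 2 and the highest without replicate 1 of IR29 at 6 h, and the cause was not tested. Leaving out control replicate 3 and 6 h replicate 1 together was added after the data had been seen. Of the values of single genes under the alternatives 3800 kept their call, 91 lost it, 2 gained it and none changed direction. Further list members and the chlorophyll genes, named after values had been seen, were not in this count. Most of the lost calls came from the limma fit with the replicate block in the 6 arrays alone. Among the genes that no longer passed there were CIPK10 (adjusted p = 0.079), TUB1 (0.13), TUB7 (0.12), HSFB2A (0.059) and GA20OX2 (0.11). MPK16, the trehalose-phosphate phosphatase TPP2 and RPS4 lost their call in most of the fits with 1 array left out. The signal of dim genes near the floor of the array limits what can be said of them.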
